A study of Mus musculus with 102 samples.

Results

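DNA methylation was lower in Cre-treated than in mock-treated wild-type mouse embryonic stem cells (ESCs) at day 17 at most of the amplified regions, and no region was higher at an adjusted p under 0.05. The comparison held 6 of the 102 samples of the series, 3 replicates after Cre and 3 after mock treatment. Every CpG with a level in all 6 samples was used, which gave 399 of the 405 CpGs measured, on 64 of 65 amplicons. The 6 CpGs left out lie on ES-specific_LMR32, an amplicon in Cacng7 whose CpGs were covered by 1 or 2 reads in Cre replicate 1.

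Both groups came from one C57BL6/J ESC line with intact Tet genes, in which both alleles of Dnmt3a and Dnmt3b carry catalytic exons flanked by loxP sites. The Cre group received a cell-permeable Cre recombinase and is labelled as catalytically dead for Dnmt3a and Dnmt3b, and the mock group kept both genes intact. Day 0 samples were not transduced, and the parallel TTKO line carries the same conditional alleles and lacks the Tet proteins. The cells are a single line in culture. The study's text calls the replicates biological, the labels do not say whether they were separate cultures, and p-values measure the spread between these samples. The extent of the deletion was not measured in these tables, so any cells that escaped it are part of the Cre values.

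DNMT3A and DNMT3B are the de novo methyltransferases, which add methyl groups to unmethylated CpGs, whereas DNMT1 copies existing methylation onto the new strand at replication. TET enzymes oxidise methylated cytosine and so start its active removal. Once Dnmt3a and Dnmt3b are inactive, methylation lost at a CpG is no longer replaced by their activity. Unmethylated regions (UMRs) are mostly CpG-rich promoters, low-methylated regions (LMRs) are mostly distal regulatory sites bound by transcription factors, and fully methylated regions (FMRs) make up much of the remaining genome. CTCF is an insulator-binding factor, and REST is a repressor of neuronal genes.

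Amplicon bisulfite sequencing converts unmethylated cytosines before chosen regions are amplified, so a CpG's level is the percentage of its reads still showing cytosine. Across the comparison, samples held between 2335972 and 2834599 reads summed over the 399 CpGs, with a median coverage between 3797 and 4769 reads per CpG and no value under 245 reads. Across CpGs, Pearson's r was 0.986 to 0.996 between replicates of one treatment and 0.934 to 0.955 between treatments. The median standard deviation of a CpG between replicates was 1.32 percentage points after Cre and 2.26 after mock treatment. Reads of one amplicon in one sample come from PCR without molecular identifiers.

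The sequences of 7 amplicons show the spacing of the CpGs on which the results below turn. They were read from mm9, plus strand, and capitals mark the CpGs measured here. The first 4 held some of the largest falls, the next is an intronic amplicon of the FMR class whose CpGs fell by similar numbers of percentage points, the sixth is the most highly methylated amplicon, and the last held a pair of weakly methylated CpGs and a more methylated one. They were chosen after the values were seen.
LMR7, chr13:28387579-28387701: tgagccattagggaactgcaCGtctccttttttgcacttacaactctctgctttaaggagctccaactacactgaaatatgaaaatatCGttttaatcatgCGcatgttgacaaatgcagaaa
NP-specific_LMR41, chr7:78616632-78616862: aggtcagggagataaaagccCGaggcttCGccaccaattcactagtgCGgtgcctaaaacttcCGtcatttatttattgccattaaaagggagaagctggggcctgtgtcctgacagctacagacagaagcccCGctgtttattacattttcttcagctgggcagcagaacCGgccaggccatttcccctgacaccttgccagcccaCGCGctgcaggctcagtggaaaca
LMR24, chr3:65259441-65259602: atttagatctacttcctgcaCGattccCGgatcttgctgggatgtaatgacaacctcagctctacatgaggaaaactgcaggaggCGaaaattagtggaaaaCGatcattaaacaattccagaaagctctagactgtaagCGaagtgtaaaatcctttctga
LMR40, chr11:94734346-94734644: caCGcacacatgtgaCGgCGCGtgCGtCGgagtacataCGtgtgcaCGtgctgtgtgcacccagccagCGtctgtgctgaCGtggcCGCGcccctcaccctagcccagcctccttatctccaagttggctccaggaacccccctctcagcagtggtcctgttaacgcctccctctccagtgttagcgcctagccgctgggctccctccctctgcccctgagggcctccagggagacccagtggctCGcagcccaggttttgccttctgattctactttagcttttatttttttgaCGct
FMR5, chr11:68769038-68769199: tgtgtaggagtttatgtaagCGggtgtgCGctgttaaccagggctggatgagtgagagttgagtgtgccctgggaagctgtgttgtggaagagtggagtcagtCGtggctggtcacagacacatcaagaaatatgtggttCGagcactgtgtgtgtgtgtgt
metIsland21, chrX:5659107-5659298: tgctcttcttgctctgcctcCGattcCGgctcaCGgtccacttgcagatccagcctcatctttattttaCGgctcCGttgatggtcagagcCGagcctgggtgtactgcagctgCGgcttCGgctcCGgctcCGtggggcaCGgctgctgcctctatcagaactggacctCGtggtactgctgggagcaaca
Constitutive_LMR-REST68, chr12:29516065-29516231: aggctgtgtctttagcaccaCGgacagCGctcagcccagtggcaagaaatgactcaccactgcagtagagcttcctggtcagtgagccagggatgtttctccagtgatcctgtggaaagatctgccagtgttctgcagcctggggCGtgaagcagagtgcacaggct

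The first question was how far methylation in the Cre-treated wild-type cells lay below the mock level at day 17. The mean level over the 399 CpGs was 30.3%, 29.0% and 29.9% in the 3 mock replicates and 19.2%, 20.7% and 18.8% in the 3 Cre replicates. Every Cre replicate was below every mock replicate, by 10.2 percentage points between the means of 29.7% ± 0.641 and 19.6% ± 0.971 (SD, n = 3 each). The median over CpGs differed by -6.30 percentage points. An exact two-sided permutation test gave p = 0.1, the smallest value that 3 samples against 3 allow.

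Single CpGs were compared with a quasi-binomial logistic model whose dispersion was moderated across CpGs. At an adjusted p under 0.05 (Benjamini-Hochberg), 205 of 399 CpGs (51.4%) fell and none rose, and 230 had an unadjusted p under 0.05. Over all CpGs, the log2 odds ratio (Cre relative to mock) had a median of -1.28. In 248 CpGs (62.2%) all Cre replicates lay below all mock replicates, and in none did all lie above.
Of the 194 CpGs that did not pass, 176 had a mock level under 10%, and 9 had a mock level of at least 20%. Among the 106 CpGs with a mock level of at least 50%, 100 fell. With the dispersion taken from all 39 wild-type samples the count of falls was 131.

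Summed over each amplicon, 50 of 64 (78.1%) fell and none rose, with 51 at an unadjusted p under 0.05, and in 54 (84.4%) the Cre replicates lay below the mock replicates without overlap. In 20 amplicons every CpG fell, in 31 some did, and in 13 none did. The scatter of Cre against mock levels shows the CpGs on a curve that hugs the lower axis at low mock levels and turns up towards the diagonal near full methylation.

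**Figure D1:**
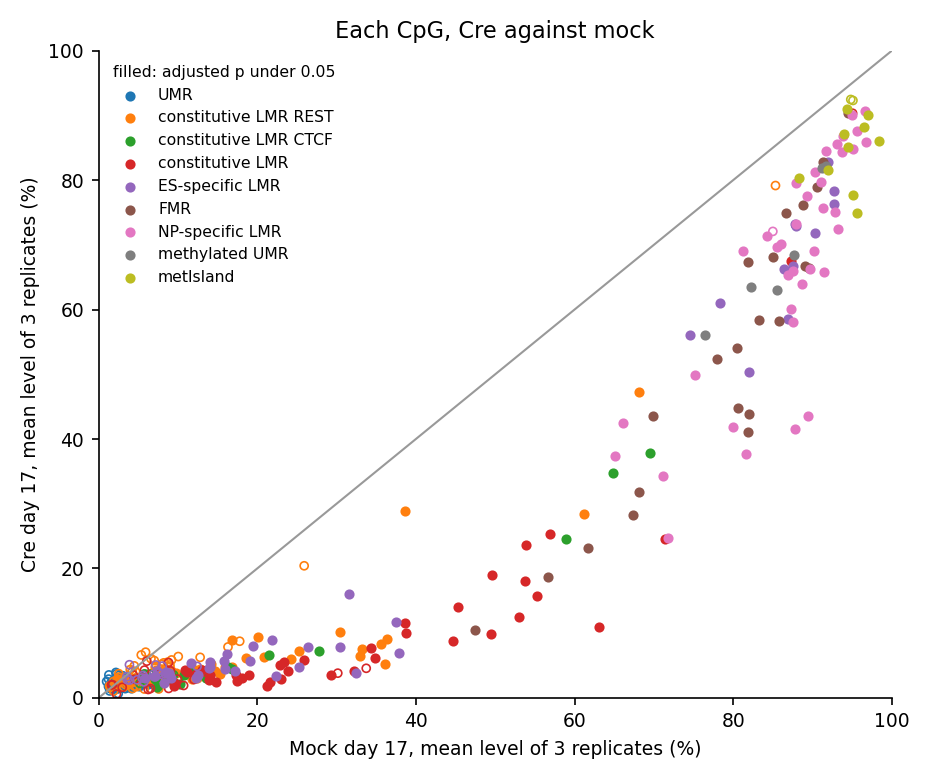
Methylation level of each of the 399 CpGs after Cre (vertical axis, mean of 3 replicates, %) against mock treatment (horizontal axis, mean of 3 replicates, %), coloured by region class, with the diagonal as the line of no difference. Filled points are the 205 CpGs with an adjusted p under 0.05, all of them below the diagonal.

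The amplicons named first are the 8 with the largest falls in percentage points among those that passed the test. The largest was at LMR24, an intergenic constitutive LMR (chr3:65259461-65259582) whose nearest annotated gene is 4931440P22Rik, 51658 bases away. Its level was 49.4%, 54.3% and 52.0% in the mock replicates and 11.8%, 16.0% and 14.3% in the Cre replicates. The groups lay far apart, with a log2 odds ratio of -2.76 ± 0.17 (SE, adjusted p = 2.92e-05). All 5 CpGs fell, by 27.1 to 46.9 percentage points. LMR35 and LMR38 lie within the same neighbourhood, so these amplicons are not independent regions, and they held 17.3% and 14.1% after mock and 3.58% and 3.47% after Cre treatment.

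Among the fully methylated regions, FMR5 in an intron of Arhgef15 held 64.0%, 61.2% and 64.4% after mock and 25.2%, 30.1% and 24.1% after Cre treatment. The log2 odds ratio was -2.28 ± 0.13 (SE, adjusted p = 2.13e-05), and the differences of its 4 CpGs were nearly the same, from -37.9 to -35.8 percentage points. Their mock levels ran from 47.4% to 80.6%, and the retained share of these ran from 22.0% to 55.6%. FMR4 in an intron of Atp2b2, a plasma membrane calcium pump, fell from 70.2% ± 0.926 to 34.7% ± 4.46. FMR9 in an intron of Acot7, an acyl-CoA thioesterase, fell from 83.7% ± 4.21 to 57.9% ± 4.94 (SD, n = 3).

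NP-specific_LMR41 was the amplicon of its class that lost the most, from 90.2%, 86.3% and 85.7% in the mock replicates to 51.1%, 60.0% and 56.9% in the Cre replicates. It is intergenic, 120375 bases from Gm10295 on chromosome 7. NP-specific_LMR44 in an intron of Aff3 fell from 85.0% ± 2.28 to 61.6% ± 1.98, and NP-specific_LMR39 in an intron of Fbxl17, an F-box ubiquitin ligase subunit, from 81.2% ± 0.588 to 59.0% ± 4.16 (SD, n = 3). LMR7, 144159 bases from the prolactin family gene Prl5a1, completed these 8 with 81.8% ± 2.3 after mock and 56.3% ± 2.72 after Cre treatment. Lack of overlap between the replicates was part of how these 8 were chosen. All 8 had a lower level at day 0 than after mock treatment. At day 0 LMR24 held 42.1%, FMR5 59.6%, FMR4 55.8% and FMR9 75.4%. NP-specific_LMR41 held 79.3%, NP-specific_LMR44 75.8%, NP-specific_LMR39 72.4% and LMR7 68.6%. Each difference was thus smaller against day 0 than against mock.

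LMR81, 82 bases upstream of Fggy, had a larger difference than 4 of these 8 and did not pass the test. Its level was 32.2%, 18.9% and 44.7% in the mock replicates and 3.14%, 4.52% and 4.91% in the Cre replicates. The groups did not overlap, but the mock replicates spread widely, and the log2 odds ratio was -3.31 ± 2.68 (SE, adjusted p = 0.28). Its median coverage ranged from 366.5 to 11157 reads between samples. The day 0 level of LMR81 was 17.0%, below the mock mean of 31.9%.

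Highly methylated amplicons could also lose little. The 4 smallest changes in percentage points among amplicons with a mock level of at least 50% were at metIsland21 in a coding exon of AU022751 on the X chromosome, FMR8 in an intron of Traf3, NP-specific_LMR43 in an intron of Fgfr2 and NP-specific_LMR47 in an intron of Scube1. metIsland21 held 94.2%, 94.8% and 94.9% after mock and 84.7%, 87.1% and 84.9% after Cre treatment. FMR8, in the gene of a TNF receptor signalling adaptor, fell from 88.1% ± 2.53 to 76.2% ± 3.16. NP-specific_LMR43, in a fibroblast growth factor receptor gene, fell from 90.5% ± 0.334 to 78.2% ± 1.47 (SD, n = 3). All 4 passed the test, with log2 odds ratios between -1.16 and -1.59.

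The region classes of the amplicon list were compared next, to see where in the range of methylation levels the difference lay. All 9 classes had a lower mean after Cre, with no overlap between the 3 Cre and 3 mock replicates, and each exact two-sided permutation test gave p = 0.1, the smallest possible, and an adjusted p of 0.1 over the 9 classes. FMRs had the largest difference in percentage points, with 79.1% ± 0.31 after mock and 53.6% ± 2.87 after Cre treatment (22 CpGs). All 22 of these CpGs fell, against 51.4% of all CpGs tested.

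NP-specific LMRs, which were highly methylated in these cells, held 88.2%, 86.9% and 86.1% after mock and 65.9%, 68.7% and 66.5% after Cre treatment, and 38 of 39 CpGs fell. The single methylated UMR amplicon, near the alpha-tubulin gene Tuba3a, went from 85.8% ± 2.22 to 69.2% ± 2.72, with all 6 CpGs falling. In metIsland21, the only amplicon of its kind, 10 of 12 CpGs fell. Over all CpGs tested, 205 of 399 (51.4%) fell.

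Constitutive LMRs kept the smallest share of their methylation. Their mean was 26.5%, 24.7% and 25.9% in the mock replicates and 8.26%, 9.89% and 7.92% in the Cre replicates, so that 33.8% of the mock level was retained, and 38 of 59 CpGs fell. Constitutive LMRs of the CTCF set retained 41.1%, with 17.9% ± 0.498 after mock and 7.37% ± 1.45 after Cre treatment, and 15 of 23 CpGs fell. Those of the REST set were lower, at 11.9% ± 0.405 after mock and 5.67%, 6.60% and 5.71% after Cre treatment, and 30 of 98 CpGs fell. These counts stand against 205 of 399, or 51.4%, of all CpGs tested.

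ES-specific LMRs held amplicons of very different levels. Their mean went from 30.0% ± 1.95 to 19.1% ± 1.7, and 39 of 58 CpGs fell, against 51.4% of all CpGs tested. ES-specific_LMR28 in a coding exon of Zbtb20, a zinc finger repressor, held 86.7% after mock and 68.3% after Cre treatment, whereas ES-specific_LMR30, 29283 bases from the homeobox gene Gsx1, held 19.7% and 3.65%. ES-specific_LMR34 in a coding exon of Calhm2 fell from 24.4% to 8.08%, and all of its 11 CpGs passed the test.

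UMRs had almost no methylation in either group. Their mean was 3.03%, 2.54% and 3.00% after mock and 2.21%, 2.35% and 2.32% after Cre treatment, and 7 of 82 CpGs fell, against 51.4% of all CpGs tested. UMR19, near Tmem106b, held 2.57% after mock and 2.58% after Cre treatment, and UMR13 in a coding exon of 0610031J06Rik 2.19% and 2.17%. The conversion rates of the samples were not used here, and their part in levels this low was not tested. The plot of class means by replicate shows this order from the UMRs at the bottom to metIsland21 at the top.

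**Figure D2:**
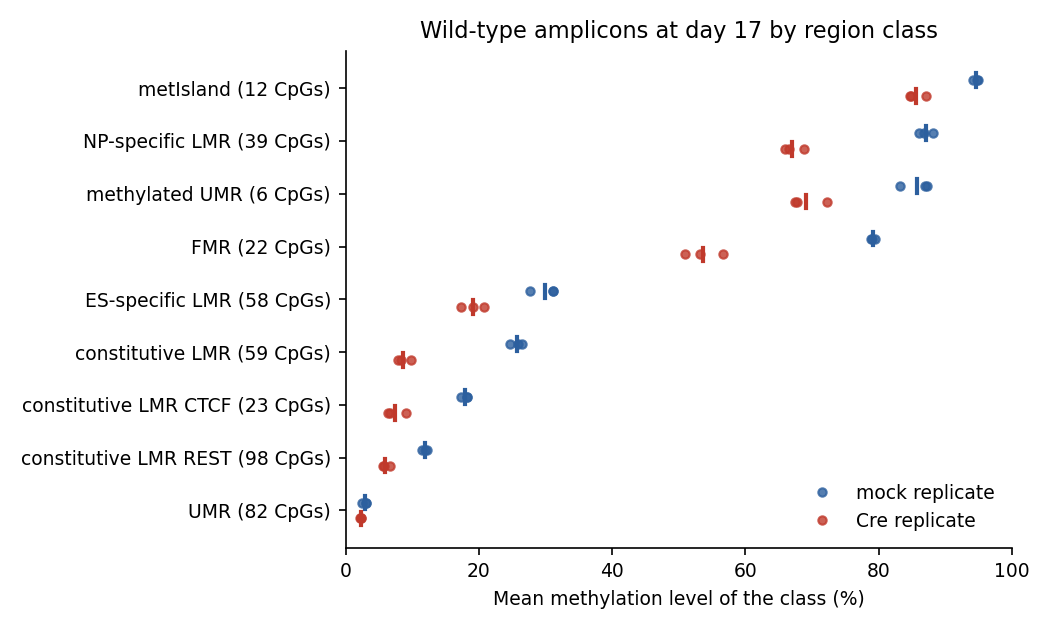
Mean methylation level of each region class (horizontal axis, %) in the 3 mock (blue) and 3 Cre (red) replicates of wild-type cells at day 17, with a bar at the mean of each group. Each point is 1 sample, the Cre replicates lie left of the mock replicates in every class, and the gap is widest for the FMRs (79.1% against 53.6%).

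The same CpGs were then grouped by their level in the non-transduced day 0 samples, which the comparison did not use. The difference was largest at CpGs of intermediate day 0 level and smallest at both ends. CpGs with a day 0 level of 50% to 70% went from 70.2% ± 0.322 to 36.8% ± 3.21, and all 18 fell. Those of 30% to 50% went from 48.1% ± 2.26 to 15.9% ± 2.28, and all 19 fell.

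CpGs of 10% to 30% retained the smallest share, 28.8%, with 17.5% ± 1.1 after mock and 5.05% ± 0.837 after Cre treatment, and 70 of 91 fell. CpGs of 70% to 90% retained 77.7%, with 87.4% ± 0.434 and 68.0% ± 2.78, and 56 of 59 fell. CpGs of 90% or more retained 92.0%, with 94.4% ± 0.253 and 86.9% ± 1.03, and 18 of 21 fell. Of the 191 CpGs under 10%, 24 fell, and their mean went from 4.93% ± 0.455 to 2.84% ± 0.183. Over all day 0 levels 205 of 399 CpGs (51.4%) fell. In each of the 6 groups the replicates did not overlap and the exact permutation test gave p = 0.1.

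Classes were also set side by side within one range of day 0 levels, as a description. Between 70% and 90%, FMRs retained 76.4%, NP-specific LMRs 76.6%, ES-specific LMRs 77.4% and the methylated UMR 78.7% of the mock level. Between 10% and 30%, constitutive LMRs retained 19.8%, the CTCF set 29.8%, ES-specific LMRs 33.3% and the REST set 33.5%. The mock levels of these last 4 were 20.6%, 13.9%, 13.9% and 21.2%.

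Neighbouring CpGs on an amplicon could respond very differently. LMR7 held the CpG with the largest fall of all, chr13:28387599, at 64.6%, 63.0% and 61.9% in the mock replicates and 6.89%, 16.2% and 9.6% in the Cre replicates (log2 odds ratio -3.82 ± 0.42, SE, adjusted p = 0.00023). Its second CpG, 68 bases on, went from 87.3% ± 3.39 to 67.6% ± 5.06, and the third, 81 bases from the first, had 95.1% ± 3.75 and 90.3% ± 3.28 and did not pass the test (adjusted p = 0.328). The day 0 levels of the 3 CpGs rose in the same order, 38.6%, 75.5% and 91.6%. In the sequence above the first CpG stands apart from the other two.

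NP-specific_LMR41 had the widest range of differences among amplicons with at least 4 CpGs. Its first CpG, chr7:78616652, held 78.6%, 72.2% and 64.7% after mock and 19.1%, 25.2% and 29.8% after Cre treatment. The first 4 CpGs, which lie within 43 bases, fell by 44.0 to 47.2 percentage points, and the last 2, in a pair of adjacent CpGs 187 bases from the first, by 10.8 and 5.89. All 8 passed the test. The mock levels ran from 71.8% to 96.8%, and the last 2 CpGs had the highest, at 96.8% and 96.7%. The log2 odds ratios lay between -3.33 and -2.83 for the first 4 CpGs. They were -1.75, -2.33, -2.43 and -1.51 for the others. The part of the mock level in the range of differences was not tested.

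LMR40, 63044 bases from the collagen gene Col1a1, combined a CpG-dense, partly methylated edge with a weakly methylated centre. Its first 7 CpGs held 34.8% to 56.9% after mock treatment and 6.08% to 25.2% after Cre, and all fell. The CpG 66 bases from the first held 2.97% ± 2.6 after mock and 1.62% ± 1.31 after Cre treatment. The 2 CpGs at the far end, 243 and 293 bases from the first, fell from 21.5% ± 1.83 to 2.48% ± 2.15 and from 25.9% ± 11.7 to 5.83% ± 2.87. Constitutive_LMR-CTCF52, 16221 bases from 2700060E02Rik, held 32.7% ± 1.85 after mock and 14.9% ± 3.03 after Cre treatment, and 5 of its 8 CpGs passed the test.

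**Figure D3:**
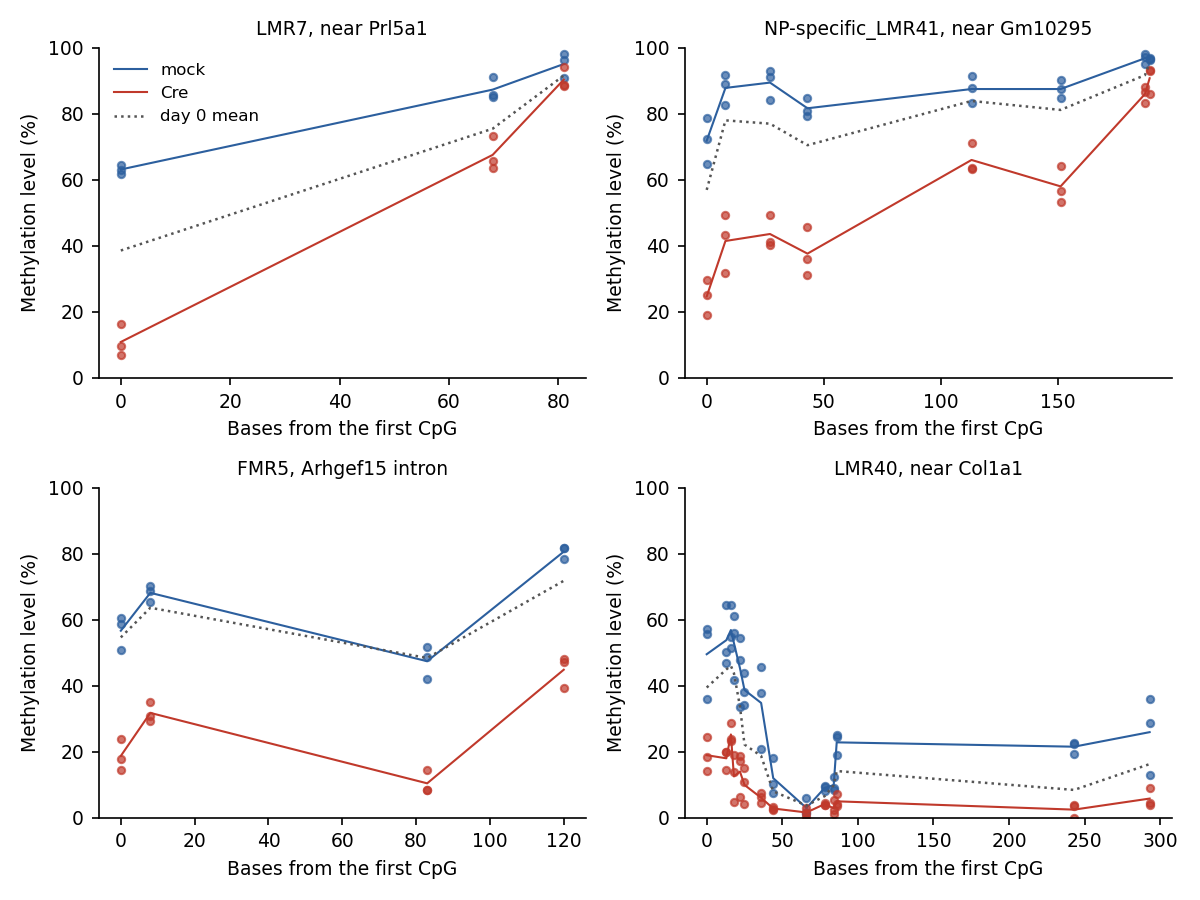
Methylation level (vertical axis, %) by distance from the first CpG of the amplicon (horizontal axis, bases) in 4 amplicons, with a point for each of the 3 mock (blue) and 3 Cre (red) replicates, lines through their means and a dotted line for the day 0 mean. The gap between lines narrows from left to right in LMR7, is wider over the first 4 than the last 4 CpGs of NP-specific_LMR41, stays nearly even in FMR5, and nearly closes 66 bases into LMR40, where the mock level was 2.97%.

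Over all amplicons, adjacent CpGs up to 10 bases apart had differences from mock that were a median of 2.09 percentage points from each other (117 pairs). The median was 2.96 points for pairs 11 to 50 bases apart (154 pairs) and 5.87 points for pairs farther apart (64 pairs). The levels of neighbouring CpGs come from the same reads, so these pairs are not independent. They include the UMR CpGs, which had little methylation in either group, and the part of level or CpG density in these medians was not tested.

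In metIsland21, the CpG chrX:5659198 lost the most, from 94.9%, 94.2% and 97.8% to 74.1%, 78.2% and 72.7% (adjusted p = 0.000297). Its day 0 level was 83.5%, below the mock level. The first and seventh CpGs of the amplicon, at positions 21 and 115 of the printed sequence, held 92.3% and 92.5% after Cre treatment and did not pass the test.

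The CpG with the lowest adjusted p of each class is given as a description, since a low p favours sites with a small spread between replicates. In NP-specific LMRs this was chr1:38493551 in Aff3, which fell from 71.1% ± 1.01 to 34.3% ± 1.88 (SD, n = 3), with at least 7440 reads per sample. In ES-specific LMRs it was chr19:47210243 in Calhm2, at 41.4%, 34.7% and 37.5% against 5.97%, 9.14% and 5.83%. In UMRs it was chr4:135690695, 8717 bases from Id3, an inhibitor of helix-loop-helix factors, at 5.33%, 6.32% and 6.54% against 2.26%, 3.24% and 3.13%. Of these, chr4:135690695 did not pass with the dispersion taken from all 39 wild-type samples.

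For constitutive LMRs the CpG was chr13:107863564 near 3830408C21Rik, which fell from 19.0% ± 1.12 to 3.57% ± 0.833. For the CTCF set it was chr10:3270090 near Ipcef1, which fell from 21.5% ± 1.92 to 6.61% ± 1.17. For the methylated UMR it was chr6:125236496 near Tuba3a, which fell from 85.6% ± 0.588 to 63.1% ± 3.43 (SD, n = 3). The CpG of lowest adjusted p among the FMRs, chr11:68769066 in Arhgef15, fell from 68.1% ± 2.46 to 31.8% ± 2.86, but had an adjusted p of 0.0915 with the dispersion taken from all 39 wild-type samples.

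The other CpGs with the largest falls lay on amplicons named above. On LMR24, chr3:65259461 fell from 71.4% ± 6.42 to 24.5% ± 5.76 and chr3:65259526 from 49.4% ± 6.27 to 9.79% ± 3.12 (SD, n = 3). In FMR9, chr4:151612915 fell from 81.9% ± 3.75 to 41.1% ± 2.88, and in FMR4, chr6:113705572 fell from 67.4% ± 3.79 to 28.2% ± 4.1. On LMR40, chr11:94734366 fell from 52.9% ± 10.0 to 12.6% ± 7.15. At day 0 these CpGs held 58.2%, 40.7%, 64.8%, 51.6% and 43.8%, in the order given.

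Constitutive_LMR-REST68, in an intron of Tssc1, held the CpG of lowest adjusted p in the REST set. Its first CpGs, 7 bases apart, held 8.13% ± 1.45 and 11.7% ± 4.64 after mock and 2.97% ± 0.299 and 2.84% ± 2.02 after Cre treatment. The CpG chr12:29516210, 125 bases from the first, held 58.3%, 65.9% and 59.5% after mock and 27.7%, 32.7% and 24.9% after Cre treatment. Its day 0 level was 43.0%, below the mock level. All 3 CpGs passed the test, and at chr12:29516210 the groups did not overlap.

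CpG density had a weak relation to the difference. Among the 106 CpGs with a mock level of at least 50%, Spearman's rank correlation between the number of CpGs within 100 bases on each side and the difference from mock was 0.29 and Pearson's r 0.25, where a positive value means a smaller fall in denser sequence. Those with 1 to 3 CpGs in this window went from 76.5% to 50.3% (13 CpGs), and those with over 12 from 83.4% to 66.0% (16 CpGs). The points are CpGs of 23 amplicons that share reads and base composition, and the mock level differed between the density groups as well. By annotation, 100% of 41 intronic, 92.5% of 40 intergenic and 88% of 25 coding CpGs at this level fell, against 100 of 106 over all of them. The 25 coding CpGs all lie on ES-specific_LMR28 and metIsland21, so they do not stand for coding sequence in general. The shares were not tested against each other.

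The mock cells were not at their starting level throughout. Over the 278 CpGs with a level in all 39 wild-type samples, the mean was 28.3% ± 0.46 at day 0, 38.6% ± 2.56 and 38.8% ± 1.27 in mock cells at days 4 and 8, and 30.7% ± 0.869 at day 17 (SD, n = 3). In Cre cells the mean went from 33.4% ± 0.991 at day 4 and 29.3% ± 0.959 at day 8 to 20.7% ± 1.06 at day 17, and reached 15.9% ± 0.191 on day 29. The Cre samples of days 4 and 8 were thus above or near day 0, and those of day 17 below it.

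**Figure D4:**
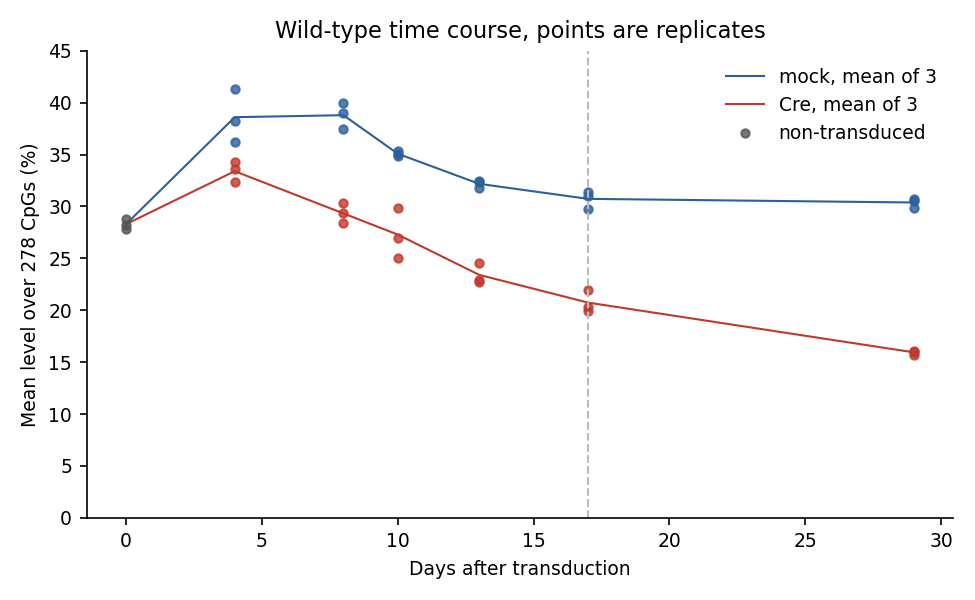
Mean methylation level over 278 CpGs (vertical axis, %) by day after transduction (horizontal axis) in wild-type mock (blue), Cre (red) and non-transduced (grey) samples, with a point for each replicate, lines through the means of 3 and a dashed line at day 17. Mock samples peak at days 4 and 8 and sit at 29.8% to 31.4% at day 17, where the Cre samples sit at 20.0% to 21.9%.

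At day 17 the mock cells held 2.41 percentage points more than the day 0 cells over the 399 CpGs, and the Cre cells 7.75 points less (exact permutation p = 0.1 each). Of 405 CpGs, 17 (4.2%) were higher in mock cells at day 17 than at day 0 and none was lower, with 92 at an unadjusted p under 0.05. The 17 lay in the NP-specific LMRs (6), FMRs (4), REST set (3), the methylated UMR (2), metIsland21 (1) and UMRs (1). At chr5:150291065 on Constitutive_LMR-REST75 the level was 16.9% at day 0, and 36.1% in mock cells at day 17. The count of 17 became 0 without day 0 replicate 2, 1 without day 0 replicate 1 or mock replicate 1, 5 without day 0 replicate 3 and 10 without mock replicate 3.

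Across days 8, 17 and 29, 339 CpGs had a level in all 18 wild-type samples. The mean difference of Cre from mock was -9.53 percentage points at day 8, -10.2 at day 17 and -14.4 at day 29. In constitutive LMRs 55.3%, 35.6% and 21.4% of the mock level was retained at these days, and in NP-specific LMRs 91.3%, 76.2% and 58.7%. FMRs retained 86.9%, 67.1% and 58.5%, and metIsland21 98.1%, 90.4% and 84.4%. The retained share of the REST set (52.7%, 50.4% and 41.1%) and of ES-specific LMRs (70.5%, 69.1% and 47.2%) was nearly level between days 8 and 17. Their methylation levels fell in both treatments between these days. The REST set went from 18.8% to 11.9% in mock and from 9.90% to 5.996% in Cre cells. ES-specific LMRs went from 49.97% to 31.3% in mock and from 35.2% to 21.6% in Cre cells. UMRs retained 75.9%, 82.0% and 77.4%, the CTCF set 60.3%, 42.4% and 21.0%, and the methylated UMR 94.3%, 80.6% and 63.4%.

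At day 29, 203 CpGs fell (51.8% of those tested), and at day 8, 137 did (38.3%). Of the CpGs tested at both days, 193 fell at day 17 and 200 at day 29, and the 166 that fell at both were 86% of the first and 83% of the second. With day 8, 95 CpGs were shared, 52.5% of those that fell at day 17 and 72.5% of those that fell at day 8. The difference itself changed between days 17 and 29 at 10 of 386 CpGs (2.59%), all with a larger fall at day 29, and between days 8 and 17 at 3 of 352 (0.852%), all with a more negative log2 odds ratio at day 17. At an unadjusted p under 0.05 these counts were 71 and 60. The 10 and the 3 did not hold when single libraries were left out, with counts of 0 to 26 and 0 to 11.

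The comparison with TTKO cells asked whether the presence of TET proteins changed the difference between Cre and mock at day 17. Over the 389 CpGs with a level in all 12 samples, wild-type cells went from 30.1% ± 0.661 to 20.0% ± 0.992 and TTKO cells from 43.5% ± 0.606 to 30.0% ± 0.763 (SD, n = 3). In TTKO cells 217 of 395 CpGs (54.9%) fell and 2 (0.506%) rose. Of the 389 shared CpGs, 200 passed the test in wild-type and 213 in TTKO cells, and the 155 that passed in both were 77.5% and 72.8% of these.

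On the odds scale no CpG differed between lines in its response (0 of 389 at an adjusted p under 0.05 in the quasi-binomial model, 43 at an unadjusted p under 0.05, and 0 with limma on log2 odds). On the scale of percentage points, limma called 80 CpGs, of which 59 fell more in TTKO and 21 more in wild-type cells. Mock levels were lower in wild-type than in TTKO cells in every class. They were 28.2% against 67.4% in constitutive LMRs and 87.1% against 93.2% in NP-specific LMRs. A CpG cannot fall by more points than its mock level, and the part of this level in the counts was not tested. Against 59 of all 389 CpGs, those that fell more in TTKO cells were 23 of 49 in constitutive LMRs, 17 of 58 in ES-specific LMRs, 10 of 98 in the REST set, 6 of 23 in the CTCF set and 3 of 82 in UMRs. Against 21 of all 389 CpGs, those that fell more in wild-type cells were 11 of 39 in NP-specific LMRs, 3 of 22 in FMRs, 3 of 58 in ES-specific LMRs, 2 of 49 in constitutive LMRs and 2 of 12 in metIsland21.

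The class means are given side by side. Constitutive LMRs (49 shared CpGs) went from 28.2% ± 1.12 to 10.0% ± 1.23 in wild-type and from 67.4% ± 1.97 to 37.5% ± 1.69 in TTKO cells, which left 35.4% and 55.7% of the mock level. NP-specific LMRs retained 77.0% in wild-type and 86.0% in TTKO cells, FMRs 67.8% and 72.8%, and metIsland21 90.4% and 94.9%. The REST set retained 50.4% and 52.2%, the CTCF set 41.1% and 44.5%, ES-specific LMRs 63.5% and 66.4%, and the methylated UMR 80.6% and 82.8%. UMRs, with mock means of 2.85% and 4.71%, went the other way, at 80.3% and 62.2%. The difference in retained shares was not tested.

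**Figure D5:**
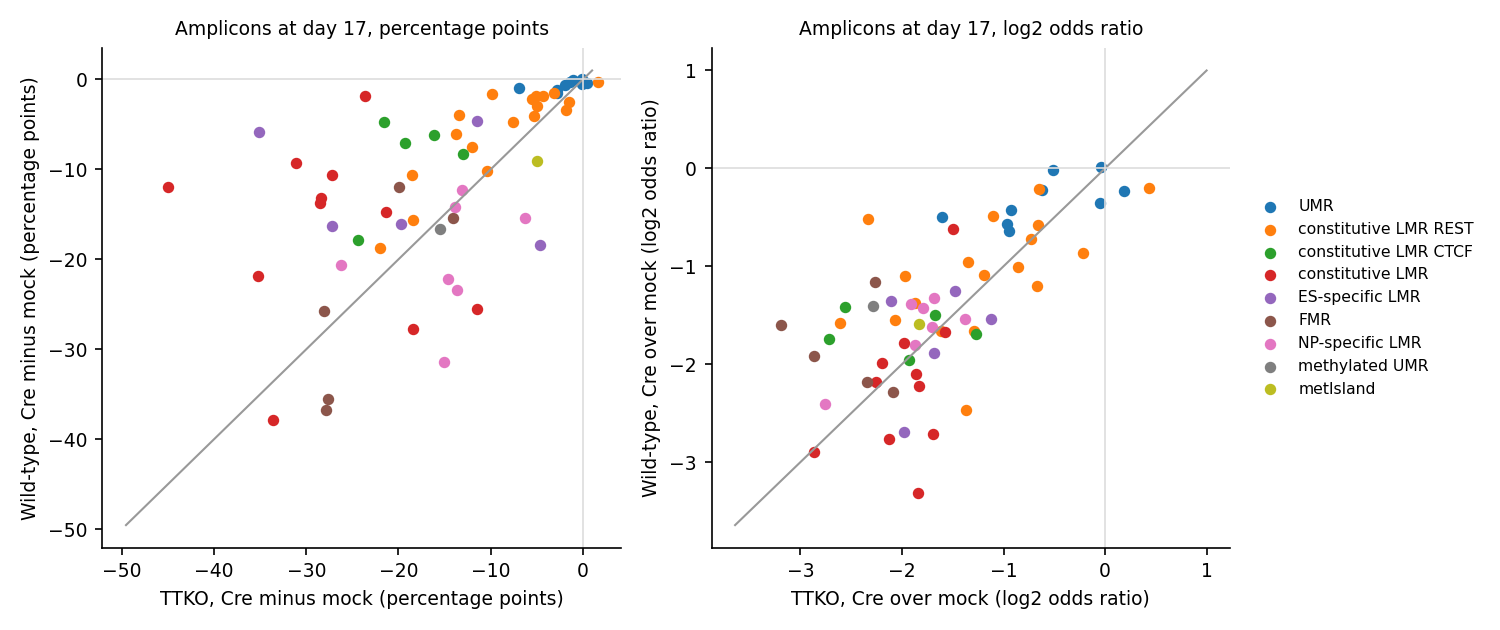
Difference between Cre and mock at day 17 for each of the 62 amplicons tested in both lines, in wild-type (vertical axis) against TTKO cells (horizontal axis), in percentage points on the left and as log2 odds ratio on the right, coloured by region class with the line of equal response. In percentage points constitutive LMRs lie mostly above the line and several NP-specific LMRs below it.

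Of the 62 amplicons, 1 (1.61%) differed between the lines on the odds scale, with 10 at an unadjusted p under 0.05. With limma the count was 3 on log2 odds and 25 on percentage points. The 1 amplicon was UMR18, 8627 bases from Id3, where the wild-type level was 3.43%, 2.64% and 3.78% after mock and 2.58%, 2.48% and 1.97% after Cre treatment. The TTKO level was 10.7% after mock and 3.76% after Cre treatment, and the log2 ratio of the odds ratios was 1.11 ± 0.24 (SE, adjusted p = 0.0443). The count of 1 became 0 when any of 9 of the 12 libraries was left out, and 2 without wild-type mock replicate 3. The wild-type fall at UMR18 itself had an adjusted p of 0.035, and this ranged from 0.0028 to 0.107 over the alternatives, 7 of 10 of which put it above 0.05.

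The amplicons named here are the 3 with the lowest p in each direction, and none but UMR18 passed on the odds scale. REST75, near 4930588N13Rik, went from 24.4% to 5.66% in wild-type and from 51.5% to 29.4% in TTKO cells (adjusted p = 0.078). FMR8 in Traf3 went from 88.1% to 76.2% and from 92.7% to 72.8% (adjusted p = 0.0708), and REST78, 108314 bases from Terf2ip, from 5.61% to 3.99% and from 13.2% to 3.26% (adjusted p = 0.078). LMR24 and REST56, near Ajap1, had adjusted p of 0.228 and 0.245. For LMR24 the levels were 51.9% and 14.1% in wild-type and 79.2% and 45.6% in TTKO cells. REST85, near Adra2a, also had an adjusted p of 0.078, in the direction of REST78, and fell outside the 3. With limma on percentage points FMR8 (adjusted p = 0.0386) and REST78 (adjusted p = 0.0275) passed, and REST75, LMR24 and REST56 did not.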

How the data were processed

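The authors bisulfite-converted genomic DNA (EpiTect), amplified the regions, sequenced them on a MiSeq, mapped them against mm9 (Rbowtie, through QuasR) and called levels with AmpliconBiSeq. They deposited coverage as counts of reads per CpG and the methylation level as a fraction of these reads, without normalization and with no level under 100 reads. Levels are printed as percentages. Coverage times level was a whole number within 1e-06 for 100% of the levels, so methylated reads were recovered as counts. Because PCR duplicates could not be told from molecules, errors were taken from replicates, not from read counts.

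Each CpG and each amplicon (summed reads) was tested by quasi-binomial logistic regression (R 4.3.3), with 0.5 added to methylated and unmethylated reads and the dispersion moderated by limma 3.58.1, and Benjamini-Hochberg adjustment with a threshold of 0.05. Interaction terms compared lines and days. Means were compared with exact two-sided permutation tests (python 3.11.15, numpy 2.4.6, pandas 2.3.3, matplotlib 3.10.9). On data simulated for the 399 CpGs the day 17 test called 46% of CpGs given a true log2 odds ratio of -1 and 77% of those given -2, and 1.6% of its calls were false. The simulation drew each CpG independently and took its overdispersion from the fitted model. Real CpGs of an amplicon share reads, so the 1.6% is not the share of false calls in the real data.

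CpGs were annotated with GENCODE M1 on NCBIM37 (mm9), in which all 405 are CG. The region classes come from the amplicon names. Named amplicons were the 8 largest falls without overlap among those that passed the test, the 4 smallest changes in percentage points at a mock level of at least 50%, the 3 widest ranges between CpGs of amplicons with at least 4 CpGs, and the 3 lowest interaction p in each direction. Named CpGs were the largest falls, at most 2 per amplicon, and the lowest adjusted p per class. LMR81, LMR35, LMR38, UMR19, UMR13, the ES-specific amplicons, the printed sequences, the class-by-day 0 split, and the density and neighbour summaries were chosen after their values were seen, and all members and lists were chosen with earlier results of these data known. A search of the 88 listed regions for 15 REST and CTCF motif strings was also made after seeing values, and its matches are not reported. Alternatives covered coverage minima of 500 and 1000, the dispersion, limma on other scales, the replicate block and leaving out each replicate.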

Additional observations from a re-analysis of the deposited data

Results flagged for a closer look

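These results stood out because a test of the difference between lines or days passed at an adjusted p under 0.05. UMR18, near Id3, was the only amplicon whose response to Cre differed between wild-type and TTKO cells in the quasi-binomial model on the odds scale, with a log2 ratio of odds ratios of 1.11 (adjusted p = 0.0443). Its wild-type means of 3.28% after mock and 2.34% after Cre were near those of all UMRs, 2.85% and 2.29%. The part of such low levels in the ratio was not tested. With the replicate block no amplicon passed.

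Between days 17 and 29 the response changed at 10 CpGs, and 5 of them lie on NP-specific_LMR37, 190082 bases from the Iroquois homeobox gene Irx4. Their log2 ratios were -1.95 at chr13:73207821, -2.01 at chr13:73207840, -1.97 at chr13:73207857, -1.98 at chr13:73207878 and -1.68 at chr13:73207891. At chr13:73207878, the level was 69.0% in Cre and 90.2% in mock cells at day 17, and 38.0% and 90.3% at day 29. The others were chr15:83540655 in Scube1 at -1.38, chr16:43609834 in Zbtb20 at -2.28, chr6:113705660 in Atp2b2 at -1.36, chr7:78616765 near Gm10295 at -1.73 and chrX:5659248 in AU022751 at -2.18. All were more negative at day 29, and the count was 0 without any one of 3 single libraries.

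Between days 8 and 17 the response changed at 3 CpGs, with a more negative log2 odds ratio at day 17, but at 0 CpGs with the replicate block and at 0 without any one of 7 single libraries. The log2 ratios were 1.62 at chr11:68769141 in Arhgef15, 1.49 at chr19:54250340 near the adrenergic receptor gene Adra2a and 3.17 at chrX:5659198 in AU022751. At the last of these, Cre cells held 93.2% and mock cells 91.7% at day 8, and 75.0% and 95.6% at day 17.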

How the results depend on the processing

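The counts of falling CpGs and amplicons at day 17 stayed within 1.5 times of 205 and 50 under the alternatives run, with 170 to 230 CpGs and 43 to 52 amplicons when each replicate was left out, except that the dispersion from all 39 wild-type samples gave 131 CpGs. The difference in mean level stayed between -10.7 and -9.80 percentage points without single replicates, was -9.69 at a coverage of at least 1000 reads and -11.1 with amplicons counted equally, and was -6.30 for the median over CpGs. No class or day 0 group changed direction under any alternative run. Same-numbered Cre and mock samples deviated with correlations of -0.03, -0.10 and -0.02, so replicate numbers were not treated as pairs. With the replicate block 188 CpGs fell and 1 rose, and 46 amplicons fell. Without Cre replicate 2, 183 CpGs fell and 1 rose. The block left 0 amplicons in the line interaction and 0 CpGs in the day 8 interaction.

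The line interaction depended on the scale. On percentage points limma called 80 CpGs and 25 amplicons (6 falling more in wild-type and 19 in TTKO cells), and on log2 odds 3 amplicons. It gave 0 to 1 CpGs and 0 to 2 amplicons without single replicates, the only library giving 1 CpG or 2 amplicons when left out being wild-type mock replicate 3. The day 29 interaction gave 0 to 26 CpGs, with 0 without Cre replicate 2 of day 17 or mock replicate 2 or 3 of day 29, 1 and 3 without mock replicate 2 and 3 of day 17, and 26 and 20 without Cre replicate 2 and 3 of day 29. The day 8 interaction gave 0 to 11 CpGs, with 11 without Cre replicate 1 or 2 of day 8, 1 without Cre or mock replicate 2 of day 17, and 0 without Cre replicate 1 or 3 or mock replicate 1 or 3 of day 17 or any mock replicate of day 8. The mock comparison with day 0 gave 0 to 17, and with the block 22 CpGs were higher and 2 lower. The causes were not tested.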
